A study of Mus musculus with 16 samples.

Results

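The heterotrimeric G protein alpha subunits of the Gi, Go, Gz, Gs and G12/13 kinds were followed on astrocyte ribosomes and in whole striatum of the mouse. The members were the rows of the read count table with the symbols Gnai1, Gnai2, Gnai3, Gnao1, Gnaz, Gnas, Gna12 and Gna13, and all 8 were found among the 24058 symbols of the table. Astrocytes expressed bARK, a peptide called iβARK in the study that attenuates Gq signalling, or bARK(D110A), its counterpart with a substitution at the residue its name gives. RNA precipitated through a hemagglutinin tag on astrocyte ribosomes is called IP, and RNA of the cleared striatal lysate is called input. The 4 groups were bARK IP, bARK input, bARK(D110A) IP and bARK(D110A) input, with 4 libraries each. All mice were males of 9 weeks on the C57BL/6J background with a wild-type genotype, so every group carried one of the 2 constructs and no group lacked both. The labels do not name the promoter or vector that drove the constructs, nor the origin of the tag. They number the libraries 1 to 4 and do not state that the numbers are separate mice. The p-values therefore reflect how far these libraries spread, which may be technical.

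An alpha subunit binds guanine nucleotides, couples a heptahelical receptor to its effectors and decides which pathway the receptor engages. The Gi kinds Gnai1, Gnai2 and Gnai3, with the related Gnao1 and Gnaz, lower cyclic AMP or act through the beta and gamma subunits they release, Gnas raises cyclic AMP by stimulating adenylyl cyclases, and Gna12 and Gna13 act on the cytoskeleton and cell shape. None of them is the Gq kind that bARK binds. In the striatum, medium spiny neurons use the Gs-type paralog Gnal in place of Gnas for much of their cyclic AMP signalling.

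The members lie apart from each other in the genome, in GRCm38 with GENCODE M21 gene bounds. Gnai1 spans chr5:18265135-18360355 on the minus strand, Gnai2 chr9:107614125-107635367 on the minus strand and Gnai3 chr3:108107280-108146146 on the minus strand. Gnao1 spans chr8:93809966-93969388 on the plus strand, Gnaz chr10:74967177-75016907 on the plus strand and Gnas chr2:174284320-174346744 on the plus strand. Gna12 spans chr5:140758408-140830431 on the minus strand and Gna13 chr11:109362831-109401369 on the plus strand. Each is a protein-coding gene, and the counts cover the gene as a whole. Exons of opposite-strand genes share 284 bases with Gnao1 (4930488L21Rik), 988 and 1469 bases with Gnas (Nespas and Gm20721), 456 bases with Gna12 (Amz1) and 151 bases with Gna13 (Gm11696). Whether the counting used strand is not given in the sources at hand, and reads in these stretches are uncertain. Gnas also has several starts with different first exons, and a count per gene does not tell their transcripts apart.

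The start regions of Gna13 and Gnai1 are printed. Gna13 had the largest IP enrichment of the members, and Gnai1 was the member that passed in neither direction with either construct. The part of these sequences in that difference was not tested. Both come from RefSeq in build GRCm38.p6 and run from 250 bases before to 50 bases after the annotated start, read 5′ to 3′ on the strand of the gene. Capitals mark GC boxes, spelled GGGCGG or CCGCCC on the strand shown.
Gna13 (chr11:109362544-109362843, plus strand): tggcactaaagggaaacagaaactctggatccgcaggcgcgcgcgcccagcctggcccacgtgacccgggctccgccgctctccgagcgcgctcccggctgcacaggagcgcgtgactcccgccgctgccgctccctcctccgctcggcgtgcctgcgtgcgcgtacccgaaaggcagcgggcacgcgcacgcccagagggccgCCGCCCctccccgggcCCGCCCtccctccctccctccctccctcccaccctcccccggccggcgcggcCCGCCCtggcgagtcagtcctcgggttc
Gnai1 (chr5:18360364-18360663, minus strand): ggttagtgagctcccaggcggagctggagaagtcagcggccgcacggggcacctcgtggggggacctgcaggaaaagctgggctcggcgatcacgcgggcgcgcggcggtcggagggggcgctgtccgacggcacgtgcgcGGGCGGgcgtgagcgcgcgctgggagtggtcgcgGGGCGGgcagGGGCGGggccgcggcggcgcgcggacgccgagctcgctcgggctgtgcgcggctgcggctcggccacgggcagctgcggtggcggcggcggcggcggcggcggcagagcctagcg
Each window held 3 GC boxes, and 76.7% of the Gna13 window and 80.0% of the Gnai1 window was G or C, against a median of 52.7% over all windows. A window was found for 6 of the 8 members, with 9 windows in all because Gnas had 4. GC boxes were in 5 of the 9 member windows and in 35.7% of all 32851 windows of the same length. The core of the cyclic AMP response element, TGACG or CGTCA, was in 4 of the 9, at Gnas and Gnai3 only, and in 20.8% of all. The CCAAT box, CCAAT or ATTGG, was in 3 of the 9, at Gnas and Gna12 only, and in 37.4% of all. The TATA box, TATAAA or TTTATA, was in 3 of the 9, each of them at Gnas, and in 13.6% of all. The Gnas windows chr2:174327499-174327798 and chr2:174327518-174327817 overlap over most of their length. They held these 3 motifs each, so a shared site can count in both. These motifs were chosen after the windows had been seen, none contains another, and they are matches of letters and not binding sites.

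Each library held between 27.81 M and 51.43 M counts. The IPs were deeper, with 41.47 M to 47.16 M in bARK IP and 44.64 M to 51.43 M in bARK(D110A) IP, against 27.81 M to 38 M in bARK input and 29.09 M to 37.33 M in bARK(D110A) input. Levels are given as CPM, counts scaled to a common library total after correction by the trimmed mean of M values (TMM). All 12 astrocyte markers passed as higher in IP than in input with both constructs, with median log2 fold changes of 2.58 with bARK and 2.37 with bARK(D110A). All 12 medium spiny neuron markers passed as lower, with medians of −1.13 and −0.99, and their summed level was 4965 to 6621 CPM across the 8 IPs and 10206 to 13738 CPM across the 8 inputs, so neuronal RNA was still in the IPs. The 12 microglia markers summed to 54.7 to 72.2 CPM in the IPs and 813 to 1337 CPM in the inputs, and the 10 endothelial markers to 13.9 to 17.8 CPM in the IPs and 145 to 178 CPM in the inputs, and each of them passed as lower with both constructs. The 12 pan-neuronal markers were mixed, with medians of −0.12 with bARK and 0.05 with bARK(D110A). With bARK 4 passed as higher and 6 as lower, and with bARK(D110A) 5 as higher and 4 as lower. They summed to 5592 to 6923 CPM across the IPs and 6033 to 6778 CPM across the inputs. No marker was at 0 in every library of a group. Oligodendrocyte markers varied between libraries, as given with Gna12.

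Set against input, 6 of the 8 members passed as higher in IP with bARK and 1 as lower, and with bARK(D110A) 5 passed as higher and 1 as lower. Gna13, Gnai2, Gnas, Gnai3 and Gnao1 were higher with both constructs, Gnaz was lower with both, Gna12 passed as higher with bARK alone and Gnai1 passed with neither. These calls are from a fit without pairing. With IP and input of the same number paired, Gna12 passed as higher with bARK(D110A) too (adjusted p = 0.0144, edgeR). Over all 15850 genes tested, 75.8% were called with bARK, 37.6% as higher and 38.1% as lower, and with bARK(D110A) 73.7% were called, 36.5% as higher and 37.2% as lower. A called gene was therefore no rarity here. The median log2 fold change of the members was 0.85 with bARK and 0.77 with bARK(D110A), against −0.01 over all genes tested with each construct. A fold is IP over input, a call is an adjusted p under 0.05 from edgeR's quasi-likelihood test (Benjamini-Hochberg, across every gene tested), and ± after a log2 fold change is its standard error. In bulk samples, fewer cells of a type and less RNA per cell cannot be told apart, and this holds for each input value below.

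**Figure D1:**
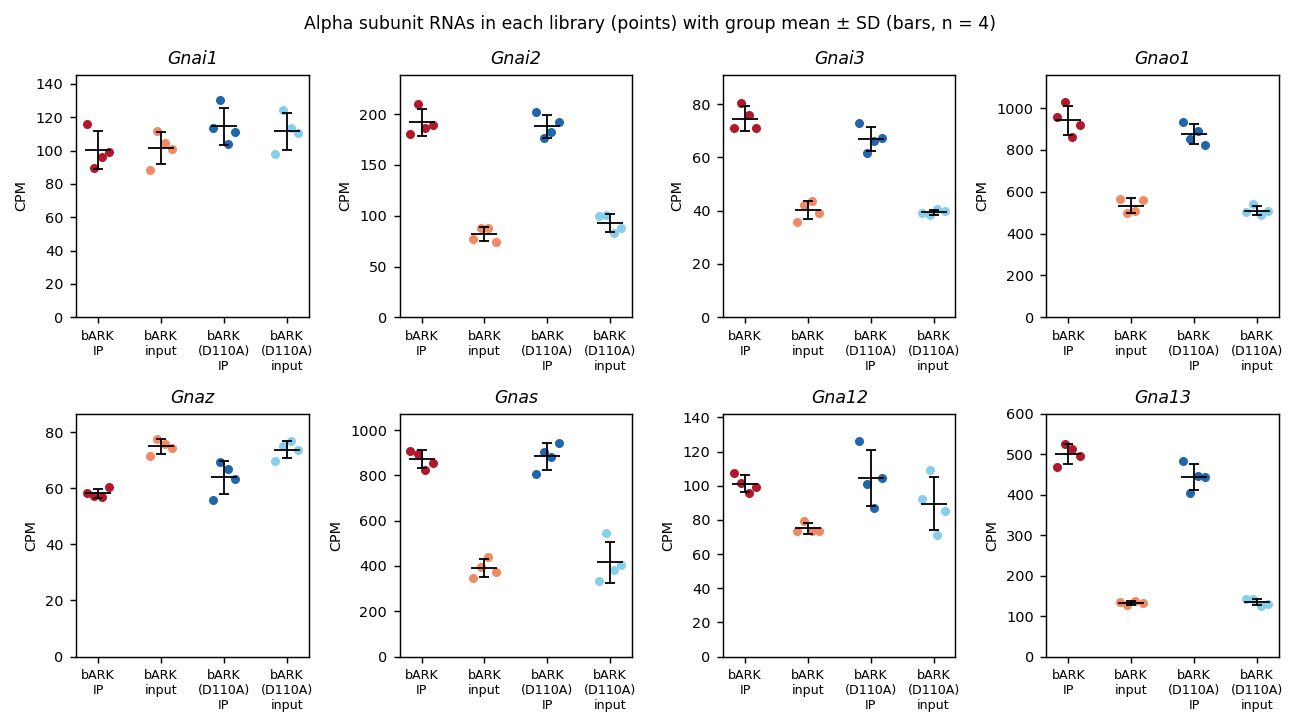
Level of each alpha subunit RNA in CPM (vertical axis, from 0) in the 16 libraries of the 4 groups, with points for libraries and bars for the group mean ± SD (n = 4). Gna13, Gnai2, Gnai3, Gnao1 and Gnas stand higher in every IP than in any input of their construct, Gnaz stands lower, and Gnai1 overlaps in all 4 groups.

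Among the Gi kinds, Gnai2 and Gnai3 passed as higher in IP, and Gnai1 did not pass. Gnai2, the Gi subunit expressed widely outside neurons too, had 181, 210.5, 187 and 189 CPM in bARK IP 1 to 4, against 76.7, 87.8, 88.3 and 74.6 CPM in bARK input 1 to 4. With bARK(D110A) the levels were 202, 176, 182 and 192 CPM in IP, against 99.7, 101, 83.2 and 88.2 CPM in input. The groups of IP and input did not overlap, and the lowest IP was far above the highest input. IP over input gave log2 fold changes of 1.23 ± 0.07 with bARK (2.34-fold, adjusted p = 1.21e-10) and 1.02 ± 0.07 with bARK(D110A) (2.02-fold, adjusted p = 1.63e-09). In the IP and input libraries that share a number, it lay between 1.08 and 1.35 with bARK and between 0.80 and 1.13 with bARK(D110A), so all 8 pairs showed it.

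Gnai3, the remaining ubiquitous Gi subunit, had the lowest counts of the Gi kinds in every group. It had 70.9, 80.6, 75.8 and 70.9 CPM in bARK IP, against 35.9, 42.1, 43.7 and 39.3 CPM in bARK input. The bARK(D110A) libraries had 72.8, 61.7, 66.3 and 67.2 CPM in IP, against 39.2, 38.3, 40.5 and 39.7 CPM in input. IP and input again did not overlap, and bARK(D110A) input was the tightest group, with an SD of 0.93 CPM around 39.4 CPM. The enrichment, on the log2 scale, was 0.89 ± 0.06 with bARK (1.85-fold, adjusted p = 8.89e-10) and 0.76 ± 0.06 with bARK(D110A) (1.70-fold, adjusted p = 7.55e-09).

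Gnai1, a Gi subunit that is prominent in brain, did not pass between IP and input with either construct. It had 116, 89.5, 96.0 and 99.1 CPM in bARK IP, against 88.5, 112, 105 and 101 CPM in bARK input. Its levels with bARK(D110A) were 114, 130.3, 104 and 111 CPM in IP, against 97.7, 124, 114 and 111 CPM in input. All 4 groups overlapped, and the IP was above the input of the same number in 1 of 4 pairs with bARK and in 3 of 4 with bARK(D110A). The fitted log2 fold change was −0.02 with bARK (95% interval −0.21 to 0.18, adjusted p = 0.877) and 0.04 with bARK(D110A) (−0.16 to 0.24, adjusted p = 0.709). These intervals leave out the folds of Gnai2 and Gnai3, but do not show that Gnai1 was equal in both RNA pools.

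Gnao1, the Go subunit that is prominent in the nervous system, was, with Gnas, among the members with the most counts. It had 960.1, 1028, 861 and 918 CPM in bARK IP, against 566, 500.1, 507 and 561 CPM in bARK input. In bARK(D110A) it had 934, 854, 891 and 823 CPM in IP, against 502, 539, 487 and 510.1 CPM in input. Every IP was above every input. The log2 fold change was 0.82 ± 0.06 with bARK (1.77-fold, adjusted p = 1.87e-09) and 0.78 ± 0.06 with bARK(D110A) (1.72-fold, adjusted p = 4.21e-09). Gnaz, a Gi relative that pertussis toxin does not modify and that is expressed mainly in neurons and platelets, went the other way. It had 58.2, 57.2, 56.9 and 60.3 CPM in bARK IP, against 71.6, 77.5, 75.8 and 74.4 CPM in bARK input. In bARK(D110A) it had 55.9, 69.5, 66.8 and 63.2 CPM in IP, against 69.6, 74.9, 76.6 and 73.5 CPM in input. No IP reached an input of its construct, although bARK(D110A) IP 2 came close to the lowest one. The log2 fold change was −0.36 ± 0.06 with bARK (0.777-fold, adjusted p = 1.62e-05) and −0.21 ± 0.06 with bARK(D110A) (0.866-fold, adjusted p = 0.00321). With library size scaling in place of TMM the bARK(D110A) value was −0.36 (adjusted p = 2.23e-05 in edgeR), and leaving out 1 library brought it as near to 0 as −0.14. It was called in all 14 alternatives, with a largest adjusted p of 0.0249, from edgeR. In pairs of the same number the log2 fold change of Gnaz was negative in all 8, and smaller in size than the median of −1.13 or −0.99 over the spiny neuron markers, while the 12 pan-neuronal markers had medians of −0.12 with bARK, where 4 passed as higher and 6 as lower, and 0.05 with bARK(D110A), where 5 passed as higher and 4 as lower.

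Gnas, which stimulates adenylyl cyclases, had 909, 897, 823 and 856 CPM in bARK IP, against 349, 396, 441 and 374 CPM in bARK input. In bARK(D110A) it had 804, 905, 882 and 943 CPM in IP, against 334, 546, 383 and 406 CPM in input. IP and input did not overlap, and bARK(D110A) input 2 stood above the other inputs. That library also had the lowest summed level of spiny neuron markers among the inputs, 10206 CPM, and the highest of oligodendrocyte markers, 9495 CPM, and their part in its Gnas level was not tested. The log2 fold change was 1.16 ± 0.11 with bARK (2.23-fold, adjusted p = 1.29e-07) and 1.08 ± 0.11 with bARK(D110A) (2.12-fold, adjusted p = 3.27e-07), and 1.24 without bARK(D110A) input 2. Gnal, the Gs-type subunit of spiny neurons, fell in IP, with log2 fold changes of −0.93 ± 0.08 (adjusted p = 9.30e-09) and −0.69 ± 0.08 (adjusted p = 4.32e-07). It averaged 758 ± 62.0 CPM in the IP and 1439 ± 89.7 CPM in the input of bARK, and 819 ± 77.4 CPM in the IP and 1321 ± 109 CPM in the input of bARK(D110A) (SD, n = 4 each). Nespas, the antisense transcript of the Gnas locus, fell as well, by 1.51 with bARK and by 2.09 with bARK(D110A) on the log2 scale. Its level was 0.280 CPM in the IP and 0.809 CPM in the input of bARK, and 0.228 CPM in the IP and 0.979 CPM in the input of bARK(D110A).

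Gna13, which links receptors to the cytoskeleton, was the member with the largest enrichment. It had 468, 525, 513 and 496 CPM in bARK IP, against 134, 128, 137 and 132 CPM in bARK input. In bARK(D110A) it had 484, 404, 446 and 445 CPM in IP, against 141, 142, 126 and 131 CPM in input. Every IP was far above every input. The log2 fold change was 1.92 ± 0.06 with bARK (3.78-fold, adjusted p = 3.23e-14) and 1.72 ± 0.06 with bARK(D110A) (3.29-fold, adjusted p = 1.39e-13). Every astrocyte marker on the list exceeded it, the lowest at 2.33 with bARK and 2.08 with bARK(D110A).

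Gna12, its close paralog, was little enriched. It had 107, 102, 95.8 and 99.3 CPM in bARK IP, against 73.5, 79.6, 73.7 and 73.3 CPM in bARK input, and these groups did not overlap. In bARK(D110A) it had 126, 101, 86.9 and 105 CPM in IP, against 92.3, 109, 71.3 and 85.4 CPM in input, and these overlapped. The log2 fold change was 0.43 ± 0.11 with bARK (1.35-fold, adjusted p = 0.00287) and 0.23 with bARK(D110A) (95% interval −0.02 to 0.47, adjusted p = 0.0843). In pairs of the same number it was positive in all 4 with bARK, from 0.36 to 0.55, and in 3 of 4 with bARK(D110A), from −0.12 to 0.45. The bARK(D110A) value depended on the setting and on single libraries. It was called in 3 alternatives: with each pair of IP and input of the same number as a block the log2 fold change was 0.23 at an adjusted p of 0.0144, without bARK(D110A) input 2 it was 0.34 (adjusted p = 0.00985), and without bARK(D110A) IP 3 it was 0.31 (adjusted p = 0.0199), all from edgeR. It was smaller and not called without bARK(D110A) IP 1 (0.13, adjusted p = 0.283), without bARK(D110A) input 3 (0.15, adjusted p = 0.208) and with library size scaling in place of TMM (0.07, adjusted p = 0.610), also in edgeR.

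In each bARK(D110A) group, the highest and the lowest level of Gna12 fell in the libraries with the most and the least oligodendrocyte marker RNA. The 10 markers summed to 8024, 5226, 5717 and 6552 CPM in bARK IP 1 to 4, against 6287, 6555, 5909.6 and 5943 CPM in bARK input 1 to 4. In bARK(D110A) they summed to 10729.6, 7901, 4007 and 6538 CPM in IP, against 8169, 9495, 5609 and 7186 CPM in input. Within bARK(D110A), the IP with the most Gna12 (IP 1) and the one with the least (IP 3) were also those with the most and the least marker RNA, and the same held for input 2 and input 3. The libraries between them in the IP went the other way. IP 2 had more marker RNA than IP 4 but less Gna12, 101 against 105 CPM. In bARK IP, library 1 had the most of both, while library 3 had the least Gna12 and library 2 the least marker RNA. Between IP and input, 1 of the 10 markers passed as higher and 1 as lower with bARK, and 0 as higher and 1 as lower with bARK(D110A). The part of oligodendrocyte RNA in the Gna12 values was not tested.

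**Figure D2:**
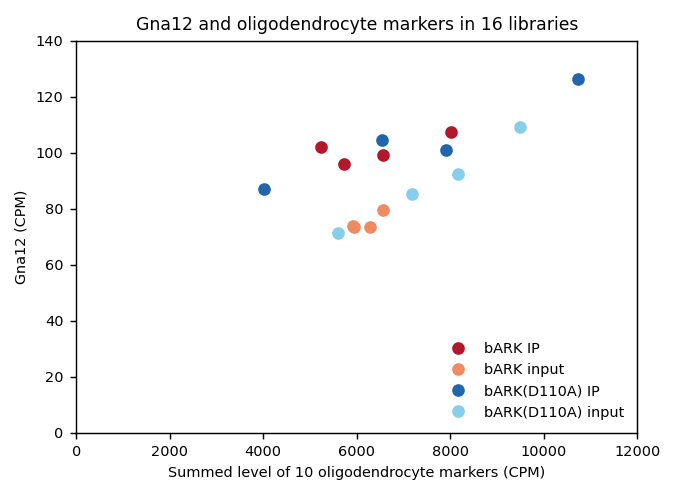
Gna12 level in CPM (vertical axis) against the summed CPM of 10 oligodendrocyte markers (horizontal axis), 1 point for each of the 16 libraries, coloured by group. The bARK(D110A) libraries span 4007 to 10729.6 CPM of marker RNA and 71.3 to 126 CPM of Gna12, a wider range of each than the bARK libraries.

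**Figure D3:**
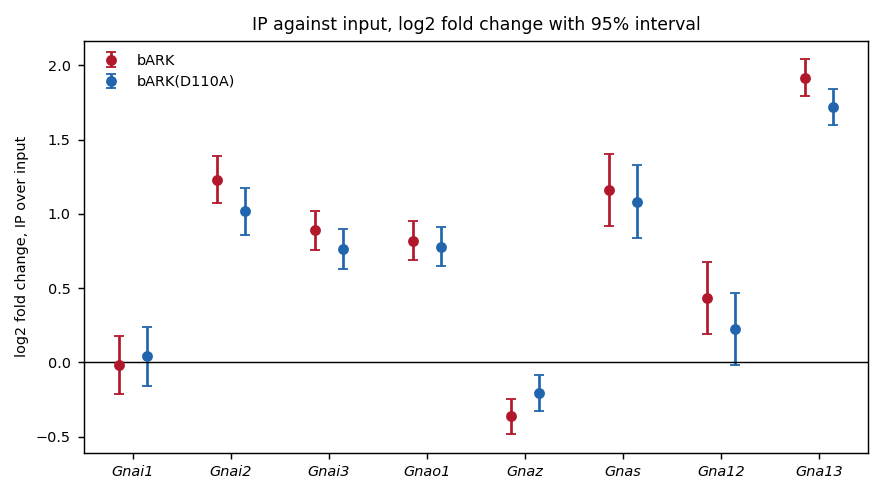
Log2 fold change of IP over input for each alpha subunit (vertical axis) with bARK and with bARK(D110A), with 95% intervals from the edgeR fit of 16 libraries. Gna13 is highest at 1.92 and 1.72, Gnaz lies below 0 with both constructs, and the intervals of Gnai1 cross 0 with both.

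Ratios of 2 members within a library do not depend on library scaling, and gene length cancels when a ratio is compared between groups. They are ratios of counts, so a value above 1 does not mean a higher level per length. The ratio of Gnai2 to Gnai1 was 1.94 ± 0.32 in bARK IP and 0.809 ± 0.057 in bARK input, and 1.65 ± 0.20 in bARK(D110A) IP and 0.841 ± 0.125 in bARK(D110A) input (SD, n = 4 each). The lowest IP ratio, 1.35, was above the highest input ratio, 1.02. Gnai3 to Gnai1 gave 0.754 in bARK IP and 0.397 in bARK input, and 0.589 in bARK(D110A) IP and 0.356 in bARK(D110A) input. For the G12/13 pair, the ratio of Gna13 to Gna12 was 4.96 ± 0.43 in bARK IP and 1.77 ± 0.11 in bARK input, and 4.31 ± 0.58 in bARK(D110A) IP and 1.53 ± 0.19 in bARK(D110A) input. The ratio of Gnas to Gnal was 1.15 ± 0.10 in bARK IP and 0.273 ± 0.040 in bARK input, and 1.09 ± 0.14 in bARK(D110A) IP and 0.322 ± 0.102 in bARK(D110A) input. None of these ranges overlapped between IP and input of a construct. Gnao1 and Gnaz parted in the same way, with 16.2 in bARK IP and 7.14 in bARK input, and 13.8 in bARK(D110A) IP and 6.93 in bARK(D110A) input.

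**Figure D4:**
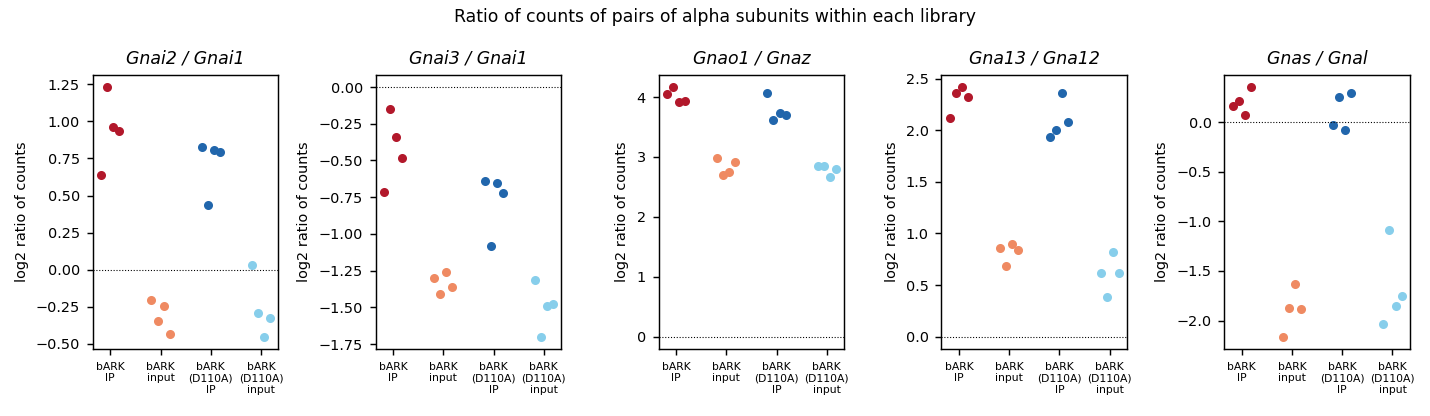
Log2 ratio of the counts of 2 alpha subunits within each library (vertical axes, a scale for each panel), 1 point for each of 4 libraries in the 4 groups. In each panel all IP points lie above all input points of the same construct.

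Per kb of merged exons (GENCODE M21), the order of the members differed between the RNA pools. In bARK IP the levels were 85.2 ± 6.36 CPM per kb for Gnao1, 77.9 ± 3.91 for Gna13 and 77.9 ± 3.50 for Gnas, which did not part from each other beyond their SD. Gnai2 followed at 50.8 ± 3.43 CPM per kb, then Gnai1 at 32.0 ± 3.61 and Gna12 at 29.6 ± 1.43, which overlapped, Gnai3 at 22.9 ± 1.42 and Gnaz at 16.1 ± 0.43. In bARK input Gnao1 led at 48.3 ± 3.15 CPM per kb, followed by Gnas at 34.9 ± 3.50 and Gnai1 at 32.3 ± 3.10, which overlapped. Gna12, Gnai2, Gnaz and Gna13 then lay together between 20.6 and 22.0 CPM per kb, and Gnai3 was last at 12.3 ± 1.05. By this length, Gna13 was level with Gnao1 and Gnas in bARK IP but stood among the lower members in bARK input. Per kb of the longest coding transcript it was well below both in bARK IP, at 81.2 CPM per kb against 170.5 and 221.

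The order in bARK(D110A) was similar, with Gnas before Gna13 in the IP. In its IP, Gnao1 was at 79.2 ± 4.32 CPM per kb, Gnas at 79.0 ± 5.26, Gna13 at 69.3 ± 5.06, Gnai2 at 49.8 ± 3.01, Gnai1 at 36.6 ± 3.55, Gna12 at 30.6 ± 4.79, Gnai3 at 20.5 ± 1.39 and Gnaz at 17.7 ± 1.64. The ranges of Gnao1, Gnas and Gna13 overlapped, as did those of Gnai1 and Gna12 and those of Gnai3 and Gnaz. In its input, Gnao1 was at 46.1 ± 1.98, Gnas at 37.3 ± 8.10, Gnai1 at 35.6 ± 3.50, Gna12 at 26.2 ± 4.62, Gnai2 at 24.6 ± 2.33, Gna13 at 21.1 ± 1.24, Gnaz at 20.4 ± 0.83 and Gnai3 at 12.1 ± 0.28, where each range but that of Gnai3 overlapped its neighbour's. The order depends on the length used: per kb of the longest coding transcript, Gnas led in bARK IP with 221 CPM per kb, before Gnao1 with 170.5, Gnai2 with 86.6 and Gna13 with 81.2.

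No member was called between the constructs. In the 8 IP libraries, edgeR called 0 of 8 members and 0 of 15006 genes (0%), with 1287 genes at an unadjusted p under 0.05, and DESeq2 called 47 genes, no member among them. In the 8 input libraries edgeR called 0 of 8 members and 0 of 15361 genes (0%), with 904 at an unadjusted p under 0.05, and DESeq2 called 7 genes and no member. The difference in IP enrichment between the constructs, tested as an interaction over 16 libraries, had 0 calls of 8 members and of 15850 genes (0%), with 951 at an unadjusted p under 0.05 and 0 by DESeq2.

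The intervals show what sizes the libraries leave room for. On astrocyte ribosomes, Gna13 averaged 500 ± 25.1 CPM in bARK IP and 445 ± 32.5 CPM in bARK(D110A) IP (SD, n = 4 each), a log2 fold change of 0.16 (95% interval 0.03 to 0.29), which did not pass. The groups overlapped, since bARK(D110A) IP 1 with 484 CPM was above bARK IP 1 with 468 CPM. The summed astrocyte markers were 34005 to 40800 CPM in bARK IP and 28840 to 35407 CPM in bARK(D110A) IP, and their part in this difference was not tested. Gnai3 averaged 74.5 ± 4.63 CPM in bARK IP and 67.0 ± 4.55 CPM in bARK(D110A) IP, a log2 fold change of 0.14 (0.02 to 0.27), which did not pass. Gnai1 had the most negative value in the IPs, −0.21 (−0.44 to 0.02), with 100.2 ± 11.3 CPM in bARK IP and 115 ± 11.1 CPM in bARK(D110A) IP. The other 5 members had values between −0.14 and 0.10, and the adjusted p of all 8 lay between 0.515 and 0.942 in edgeR.

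In input, the members with intervals that left out 0 before adjustment were Gnai2 and Gna12. Gnai2 averaged 81.9 ± 7.23 CPM with bARK and 93.1 ± 8.79 CPM with bARK(D110A), and its log2 fold change was −0.19 (−0.37 to −0.01). Gna12 averaged 75.0 ± 3.04 CPM with bARK and 89.6 ± 15.8 CPM with bARK(D110A), −0.26 (−0.53 to −0.00), beside the oligodendrocyte sums given above, and −0.15 without bARK(D110A) input 2. Neither passed, with adjusted p between 0.774 and 0.945 over the 8 members in edgeR. Gnas had the widest interval, −0.11 (−0.45 to 0.24), with 390.0 ± 39.2 CPM with bARK and 417 ± 90.6 CPM with bARK(D110A), and its value without bARK(D110A) input 2 was 0.056.

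**Figure D5:**
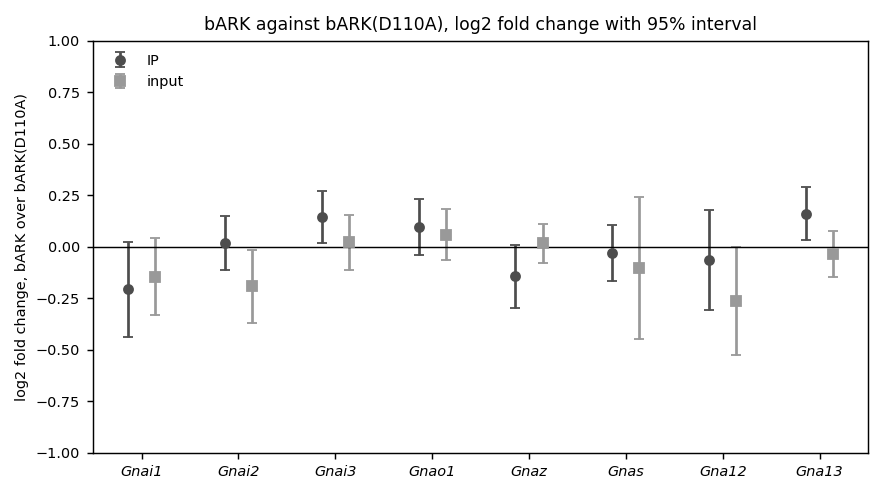
Log2 fold change of bARK over bARK(D110A) for each alpha subunit (vertical axis) in the IP libraries and in the input libraries, with 95% intervals from edgeR. All 16 values lie between −0.26 and 0.16, and none passed after adjustment over all genes.

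The IP enrichment itself was compared by the interaction. The enrichment of Gna13 was larger with bARK by 0.20 on the log2 scale (0.03 to 0.37), and the adjusted p of all 8 members lay between 0.825 and 0.964 in edgeR. For Gnai2 the difference was 0.21 (−0.01 to 0.43), for Gna12 0.21 (−0.14 to 0.55), for Gnai3 0.13 (−0.06 to 0.31) and for Gnas 0.08 (−0.26 to 0.42). Gnao1 had 0.04 (−0.14 to 0.22), Gnai1 −0.06 (−0.33 to 0.22) and Gnaz −0.16 (−0.32 to 0.01). None passed, so the call of Gna12 with bARK and not with bARK(D110A) does not show a difference between the constructs. These comparisons share libraries with those of IP against input. In the same interaction the 12 astrocyte markers ranged from 0.13 to 0.35, with a median of 0.24. The 12 medium spiny neuron markers ranged from −0.38 to −0.11, with a median of −0.17, and no marker of either list passed. The part of these cell types in the member values was not tested.

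The genes that work with these subunits were described from lists. Over all genes tested, 37.6% were higher in IP and 38.1% lower with bARK, and 36.5% and 37.2% with bARK(D110A). These shares stand beside the counts of every list below. Where 2 values are given for a gene or a median, they are log2 fold changes of IP over input, with bARK first and with bARK(D110A) after it, and every gene named passed with both constructs. Of the other alpha subunits, 5 of 8 passed the count filter: with each construct 2 were higher in IP and 3 lower, with median log2 fold changes of −0.13 with bARK and −0.09 with bARK(D110A). Gna14, a Gq relative, had 1.28 and 1.25, and Gnaq, the Gq subunit itself, had 0.22 and 0.23. Gna14 was scarce, at 1.33 CPM in bARK IP and 0.553 CPM in bARK input, with 15 to 24 counts in a library of bARK input. Gna15, the Gq relative of blood cells, had −4.04 and −4.48, at 0.219 CPM in the IP and 3.68 CPM in the input of bARK, and 0.190 CPM in the IP and 4.30 CPM in the input of bARK(D110A). Gnat1, Gnat2 and Gnat3, the sensory transducins and gustducin, did not pass the count filter.

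Beta and gamma subunits form the dimer that binds the alpha subunit. Of 15 tested among 17, 4 were higher and 9 lower in IP with each construct. Over all genes tested, 38.1% were lower with bARK and 37.2% with bARK(D110A). The medians of the list were −0.47 with bARK and −0.30 with bARK(D110A). Gng12 rose by 1.40 and 1.25 and Gng5 by 1.40 and 1.13, while Gngt2, the cone transducin gamma subunit, had −3.16 and −3.34. Gng13 had −2.69 and −2.56, at 2.70 CPM in bARK IP and 17.5 CPM in bARK input. Gngt2 was scarce, with 3 to 14 counts in a library of bARK IP, at 0.236 CPM there and 2.16 CPM in bARK input. Gng7, the gamma subunit that pairs with Gnal in spiny neurons and was named after its values were seen, had −1.98 and −1.88, with 185 ± 13.5 CPM in bARK IP and 731 ± 49.3 CPM in bARK input.

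Of the alpha subunit chaperones and regulators that are not receptors, 13 of 14 were tested. With bARK 5 were higher and 7 lower, and with bARK(D110A) 6 were higher and 7 lower, with medians of −0.37 and −0.24. Gprin2 had 1.72 and 1.41 and Ccdc88a, which encodes the exchange modulator girdin, had 0.61 and 0.57. Gprin2 was scarce, at 2.08 CPM in bARK IP and 0.630 CPM in bARK input, with 20 to 26 counts in a library of bARK input. Gpsm3, a Gi-binding protein of leukocytes, had −3.45 with both and Gprin3 −1.17 and −1.09. Gpsm3 was scarce, with 3 to 9 counts in a library of bARK IP, at 0.146 CPM there and 1.62 CPM in bARK input. The chaperones of nascent alpha subunits parted. Ric8a, listed under its older symbol Ric8 and known to serve Gi, Gq and G12/13 subunits, had 0.47 and 0.45, and Ric8b, known to serve Gs-type subunits, had −1.20 and −1.04. These chaperones were singled out after their values were seen.

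The adenylyl cyclases, effectors of Gs and Gi, were described in the same way. Of the 9 adenylyl cyclases, 3 were higher and 5 lower with bARK, and 3 higher and 4 lower with bARK(D110A), with medians of −0.32 and −0.34. Adcy2 had 1.98 and 1.87 and Adcy8, a calcium-stimulated cyclase, 1.22 and 1.15, while Adcy4 had −3.21 with both and Adcy5, the main cyclase of spiny neurons, −1.12 and −0.96. Adcy4 was scarce, with 3 to 11 counts in a library of bARK IP, at 0.184 CPM there and 1.75 CPM in bARK input. No tested gene of these lists was called between the constructs in IP, in input or in the interaction. Gna15, Gpsm3 and Adcy4 did not pass the count filter of the IP libraries and were not tested between the constructs there.

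The genes most like each member in their pattern were taken by Pearson's r of log2(CPM + 1) over the 16 libraries, among 10026 genes with a mean of at least 10 CPM. With IP and input this far apart, r mainly follows that split and is given as a description. Gna13 was closest to Plxnb1, Aldh1l1 and Scara3 (r of 0.999 each), of which Aldh1l1 is an astrocyte marker. Gnai2 was closest to Mpst, Fbxw8 and Capns1 (0.994 to 0.996), Gnai3 to Rgcc, Tmem198b and Il18 (0.992 to 0.993), Gnao1 to Anp32e, Wwc1 and Mxra7 (0.993 to 0.995) and Gnas to Dner, Ccdc136 and Tmem65 (0.994 to 0.996). Gnaz was closest to Cyb561, Celf4 and Xkr4 (0.971 to 0.978) and Gna12 to Sec11c, Plekhb1 and Gpr37 (0.954 to 0.964). Gnai1 had lower values, 0.870 with Ttll7, 0.789 with Dpp10 and 0.751 with Limk1.

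With the group means subtracted, r follows the spread among the 4 libraries of a group. Gna12 was then closest to Lamp1 and Fgfr2 (0.968 each) and Plekhb1 (0.960). Gnas was closest to Nrip3, Cdk14 and Lhfp (0.953 to 0.973), Gnai2 to Clu (0.942), Scamp2 (0.894) and Fbxw8 (0.890), and Gnaz to Napg, Cyb561 and Hecw1 (0.929 to 0.939). Gna13 was closest to Tsc22d4, Rfc1 and Itm2b (0.886 to 0.909), Gnao1 to Rcor3, Anp32e and Lrrc57 (0.869 to 0.897), Gnai3 to Pde6d, Scfd1 and Rab22a (0.866 to 0.874) and Gnai1 to Mbtps2, Ttll7 and Limk1 (0.827 to 0.839). Genes in both sets were Ttll7 and Limk1 for Gnai1, Fbxw8 for Gnai2, Anp32e for Gnao1, Cyb561 for Gnaz and Plekhb1 for Gna12. Both sets come from the same 16 libraries, so a gene in both is not an independent second result. The points of a group share construct and RNA pool and differ in depth, and nothing on shared function or control follows from r.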

How the data were processed

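RNA was sequenced from 16 mouse striatal libraries, 4 each of bARK IP, bARK input, bARK(D110A) IP and bARK(D110A) input. Per the submitters' processing notes, the tools were bcl2fastq 2.17, STAR, HTSeq and limma and the build was mm10. Their other versions, the annotation and the strand setting are not given in the sources used here. The deposited table holds whole-number read counts per gene and library, not normalised, per the submitters' processing notes and the values. It has 24060 lines for 24058 symbols, and the 2 symbols on more than 1 line were not used.

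CPM used TMM-scaled library sizes. Tests were edgeR 4.0.16 quasi-likelihood F tests (R 4.3.3, robust, filterByExpr at a minimum count of 10, Benjamini-Hochberg over all genes, threshold 0.05). IP against input and the interaction were fitted on all 16 libraries without pairing, and bARK against bARK(D110A) on the 8 of a fraction. The code was tested on simulated data. Alternatives were DESeq2 1.42.0, library size scaling without TMM, no filter, fits of the libraries compared alone, a replicate block and leaving out each library. The replicate block was the pair of IP and input for IP against input and the interaction, and the library number between the constructs. Depth was 27.81 M to 51.43 M counts, so the precision of the members is set by the spread between libraries.

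Deviations from group means of IP and input libraries with the same number correlated at 0.213 to 0.639 in all 8 pairs, so the numbers were read as pairing IP with input. Between the constructs they did not pair.

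The members, lists and alternatives were chosen with earlier results of these data known. All 8 members were named in each comparison. From each list, up to 2 genes with the largest positive and up to 2 with the largest negative log2 fold change were named among those called in IP against input with both constructs, ranked by the smaller absolute value, with Gnal named always, and any list gene called between the constructs. The 3 genes most like each member were named. One list of effectors is not reported here. Gene bounds and lengths are from GENCODE M21 and start regions from RefSeq.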

Additional observations from a re-analysis of the deposited data

Results flagged for a closer look

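Of 32 sets of 4 libraries, 8 members in 4 groups, 1 had a library far from the other 3: Gna12 in bARK input, where library 2 had 79.6 CPM and the next 73.7 CPM. The gap was 0.941 of the range of the group, past Dixon's 95% limit for 4 values. Chance gives such a gap in about 1 of 20 groups. That library also had the highest sum of oligodendrocyte markers in its group, 6555 CPM, against 5909.6 to 6287 CPM in the other 3, and their part in its Gna12 level was not tested.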

How the results depend on the processing

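In IP against input, the calls of 7 members with bARK held in each alternative run, and Gnai1 was called in none. With bARK(D110A), 6 members were called in edgeR and 7 with the replicate block (12400 genes called, against 11677 without it), and 12659 genes against 12010 with bARK; the member gained is Gna12, and the paired fit changed no other member call. Leaving out 1 library gave 11646 to 11801 genes with bARK and 11313 to 11661 with bARK(D110A). Without TMM, by library size alone, 39.6% of calls were higher with bARK and 37.4% with bARK(D110A), against 49.7% and 49.6%, with medians over all genes of −0.15 and −0.16. DESeq2 called 47 genes between bARK and bARK(D110A) in IP and 7 in input, against 0 and 0 in edgeR.

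Signs that turned were all of values that did not pass. With library size alone, Gnai1 in IP against input of bARK(D110A) was −0.12, and in bARK against bARK(D110A) in input Gnai3 was −0.00055 and Gnaz −0.00645. Leaving out 1 library, Gnai1 in IP against input ranged from −0.11 to 0.037 with bARK and from −0.028 to 0.10 with bARK(D110A). In the interaction Gnai1 ranged from −0.16 to 0.00102, Gnao1 from −0.0072 to 0.064 and Gnas from −0.095 to 0.15. In bARK against bARK(D110A), Gnai2 ranged from −0.027 to 0.054, Gnas from −0.073 to 0.0031 and Gna12 from −0.15 to 0.043 in IP, and Gnai3 from −0.020 to 0.081, Gnaz from −0.0058 to 0.045 and Gnas from −0.19 to 0.056 in input. The cause of these turns was not tested.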
